A study of Mus musculus with 20 samples.

Results

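Pear1, Jup and Mmd were the 3 genes called higher in brainstem-labelled microglia of 2-month mice carrying active Braf V600E. The call was made among 16595 genes tested, of 55487 gene identifiers in the count table, with genotype taken from the mouse number in the count column. By the other reading of the labels, explained below, 0% of genes were called higher there. The 3 genes were chosen by that rise, the fitted difference in counts between those mutant and control libraries. Their values in those libraries are thus a description, and tests were made only in the other libraries. Microglia are the resident macrophages of the brain, and Braf V600E is a constantly active form of a kinase in the ERK cascade. The series compared mutant and control microglia by bulk RNA sequencing of 20 libraries from 10 mice, with a cortex-labelled and a brainstem-labelled library per mouse.

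All mice came from a cross of Cx3cr1CreER with the Braf LSL-V600E allele, in which a tamoxifen-inducible Cre under the Cx3cr1 gene removes the stop before the mutant exon. The dams received 4-hydroxytamoxifen at 37.5 mg per kg on embryonic day 9.5, in a pulse meant for microglial progenitors. At the age of 2 months there were 3 control mice, labelled Braf WT; CX3 HET, and 3 mutant mice, labelled Braf VE; CX3 HET. At end-stage, an age the labels do not give, there were 2 controls and 2 mutants. The end-stage controls were of unlike genotype: mouse M1375 was Braf VE; CX3 WT, with the allele and no Cre, and M1521 was Braf WT; CX3 HET, with Cre and no allele. The end-stage mutants M1376 and M1524 were Braf VE; CX3 HET. The labels give neither the share of cells that had recombined nor how the cells were isolated.

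The 2-month labels conflict. For 5 of the 6 mice the number in the title of a record differed from the number in the count column that the record names. By the mouse number in the column, which chose these genes, M2617, M2621 and M2624 were mutants and M2618, M2629 and M2633 were controls. By the record that names the column, 4 of these 6 mice change sides: M2617, M2621, M2618 and M2633. Values below follow the mouse number unless the record is named. This reading was taken with results of these data known, so the 2-month differences are no independent evidence for it. The end-stage labels hold no such conflict. The region labels are quoted as labels: summed RNA of 23 Hox genes, which mark hindbrain and spinal cord, was 0.649 to 4.40 CPM (counts scaled to the size of the library) in cortex-labelled and 0.361 to 1.26 CPM in brainstem-labelled libraries, and was higher in the cortex-labelled library of 9 of 10 mice.

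Pear1 encodes a transmembrane receptor with EGF-like repeats, best known from platelets and endothelium, where contact between cells leads to its phosphorylation and to PI3K and Akt signalling. It is a relative of the MEGF and scavenger receptors, several of which take part in engulfment. Jup encodes plakoglobin, also called gamma-catenin, an armadillo-repeat protein that links cadherins to the cytoskeleton in desmosomes and adherens junctions and is a close relative of beta-catenin. Mmd is named for monocyte to macrophage differentiation. It encodes a multi-pass membrane protein of the PAQR family that sits at the Golgi and has been linked to Ras and ERK signalling.

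In the GENCODE M21 annotation of GRCm38, Pear1 (ENSMUSG00000028073.15) spans chr3:87747890-87824306 on the minus strand. Jup (ENSMUSG00000001552.14) spans chr11:100368958-100397763 on the minus strand. Mmd (ENSMUSG00000003948.17) spans chr11:90249456-90278589 on the plus strand. The 250 bases before the RefSeq start of each gene (RefSeq on GRCm38.p6, all 3 matched) are shown because the 3 genes were higher in the same libraries. They are printed 5′ to 3′ on the strand of the gene, with capitals on each match to the GC box GGGCGG on either strand, which reads CCGCCC on the other strand. The windows are chr3:87768954-87769203 on the minus strand for Pear1, chr11:100397791-100398040 on the minus strand for Jup and chr11:90249226-90249475 on the plus strand for Mmd.
Pear1: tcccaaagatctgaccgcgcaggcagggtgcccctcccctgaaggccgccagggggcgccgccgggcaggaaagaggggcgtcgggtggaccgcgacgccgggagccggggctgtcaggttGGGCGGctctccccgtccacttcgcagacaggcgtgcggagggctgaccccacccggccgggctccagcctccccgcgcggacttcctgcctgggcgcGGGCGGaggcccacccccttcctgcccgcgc
Jup: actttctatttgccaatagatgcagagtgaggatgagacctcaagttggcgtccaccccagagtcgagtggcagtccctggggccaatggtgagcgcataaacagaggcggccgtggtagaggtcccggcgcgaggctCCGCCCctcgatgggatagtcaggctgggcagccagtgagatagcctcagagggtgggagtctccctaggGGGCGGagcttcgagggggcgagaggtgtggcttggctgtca
Mmd: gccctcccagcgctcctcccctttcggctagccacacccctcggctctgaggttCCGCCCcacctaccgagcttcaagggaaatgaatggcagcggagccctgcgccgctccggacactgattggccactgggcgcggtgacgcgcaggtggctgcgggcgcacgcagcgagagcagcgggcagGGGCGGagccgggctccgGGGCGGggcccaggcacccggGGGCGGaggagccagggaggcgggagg
The Pear1 window lies inside the longer span that GENCODE gives the gene. The GC box had 2 matches before Pear1, 2 before Jup and 4 before Mmd, and at least 1 match was found in 32.7% of 32851 promoter windows of the same length. This motif was chosen after the sequences were seen. None of the 3 windows held AP-1 TGANTCA, ETS CCGGAA, PU.1-like GAGGAAGT or CRE TGACGTCA on either strand, letters that were found in 6.7%, 12.0%, 2.4% and 1.5% of windows. GC content was 76.8% before Pear1, 62.0% before Jup and 74.4% before Mmd, against a median of 52.4% over all windows. The ratio of observed to expected CpG was 0.76, 0.57 and 0.73, against a median of 0.37. The search describes letters in these windows and says nothing about binding.

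Across the 8 groups of region, stage and genotype, the 4 lowest means of Pear1 and of Mmd were those of the 4 control groups, and their 4 highest means were those of the mutant groups. The brainstem-labelled 2-month controls and mutants were used to pick the genes, so their places in these orders are a description. Pear1 group means ran from 17.1 ± 1.61 CPM (SD, n = 3) in brainstem-labelled 2-month controls to 67.3 ± 7.52 CPM (SD, n = 3) in cortex-labelled 2-month mutants, which lay beside 63.6 ± 5.52 CPM (SD, n = 3) in brainstem-labelled 2-month mutants with overlapping values. Mmd group means ran from 12.7 ± 1.53 CPM (SD, n = 3) in cortex-labelled 2-month controls to 70.4 ± 28.6 CPM (SD, n = 3) in brainstem-labelled 2-month mutants. The 4 control groups of Mmd overlapped each neighbour in the order. Jup was ordered otherwise: brainstem-labelled 2-month controls, at 108 ± 11.8 CPM (SD, n = 3), stood above end-stage cortex-labelled mutants, at 99.3 ± 5.51 CPM (SD, n = 2), with overlapping values. Its highest mean was 226 ± 16.1 CPM (SD, n = 3) in brainstem-labelled 2-month mutants, the group by whose rise Jup was picked. Its values there lay clear of the next group, the end-stage mutants of the same label, at 143 ± 15.7 CPM (SD, n = 2). Per kilobase of exon, Jup was the most abundant of the 3 in every group, with group means of 12.0 to 35.1 CPM per kb, against 2.52 to 9.92 CPM per kb for Pear1 and 3.54 to 19.7 CPM per kb for Mmd.

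**Figure D1:**
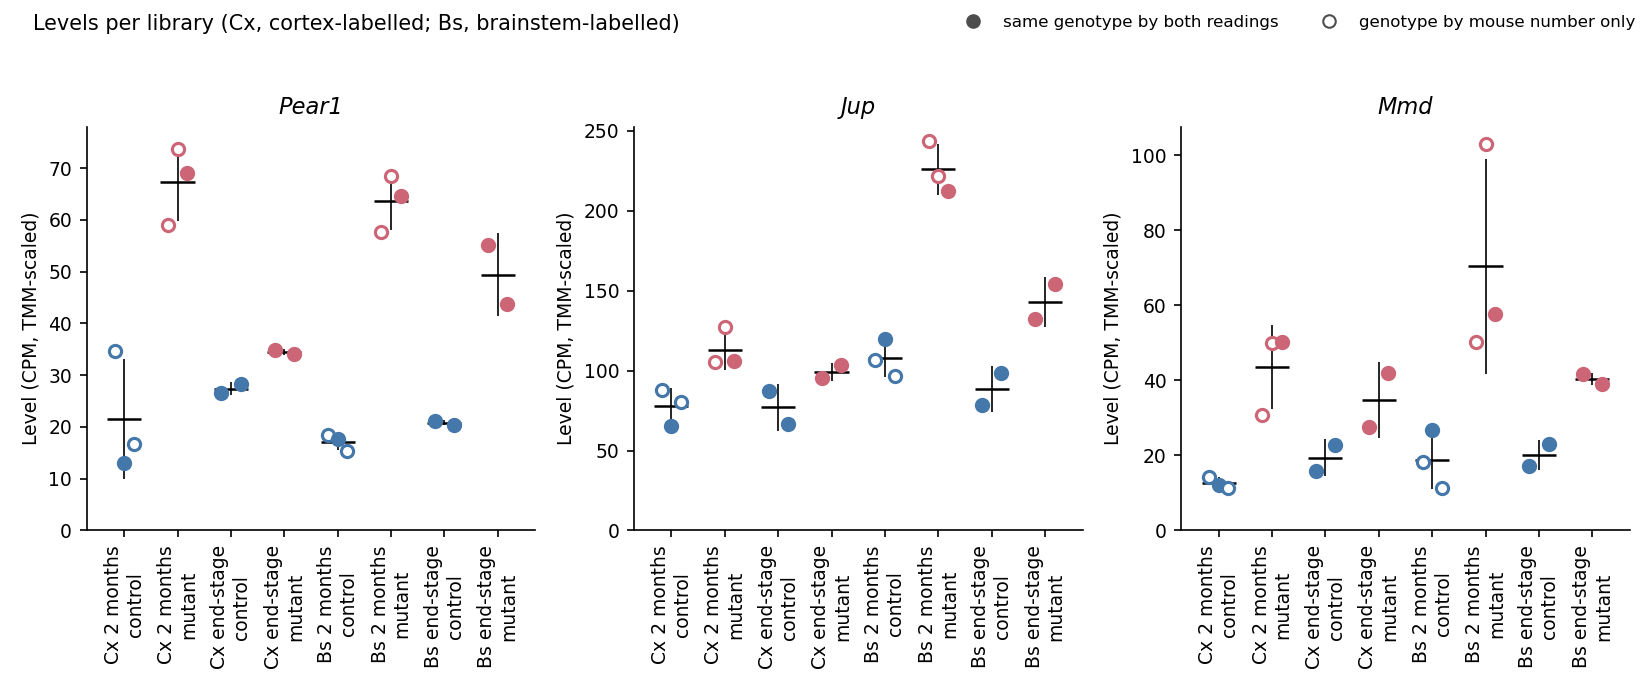
Level of each gene in each library, in CPM with TMM-scaled library sizes, over the 8 groups; controls are blue, mutants red, and the bar and line give the mean and 1 SD. Open points are 2-month mice whose genotype rests on the mouse number in the count column only. Within each region and stage all mutant libraries lie above all control libraries for each gene. Jup was highest in its brainstem-labelled 2-month mutants, at 212 to 244 CPM, a group by which the genes were picked.

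In the brainstem-labelled 2-month libraries, where the genes were picked, the levels are given without a test. Pear1 was 18.4, 17.7 and 15.3 CPM in the controls and 57.6, 68.5 and 64.6 CPM in the mutants. Jup was 107, 119.8 and 96.3 CPM in the controls and 244, 222 and 212 CPM in the mutants. Mmd was 18.3, 26.8 and 11.4 CPM in the controls and 50.3, 103 and 57.8 CPM in the mutants. No mutant value of any of the 3 reached into the control range, as was the case for 7.19% of all genes, and the Mmd value of mutant M2621 stood well above those of the other mutants. The fitted log2 differences, mutant minus control, were 1.89 ± 0.26 (SE) for Pear1, 1.07 ± 0.16 for Jup and 1.90 ± 0.32 for Mmd, or 3.71-fold, 2.10-fold and 3.74-fold. These 3 were all the genes called higher there, 0.0181% of the 16595 genes tested, which the choice of members fixes. Just outside the threshold were Capg, an actin filament capping gene, at 40.0 to 68.6 CPM in controls and 139.7 to 179 CPM in mutants (log2 difference 1.63), and Aldh1l1, an astrocyte marker, at 0 counts in the controls and 0.884 to 2.16 CPM in the mutants. The 3 genes are thus not the largest changes of this contrast: 1339 genes had a larger fitted rise than Jup.

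In the cortex-labelled libraries of the same 6 mice, Pear1 and Mmd rose in the mutants and Jup narrowly missed the threshold. Pear1 was 34.7, 13.1 and 16.7 CPM in controls M2618, M2629 and M2633, and 59.02, 73.8 and 69.03 CPM in mutants M2617, M2621 and M2624. The control M2618 was the high one of its group, still below every mutant. The rise was 1.64 ± 0.26 on the log2 scale (SE, 3.13-fold; edgeR quasi-likelihood test, adjusted p = 0.00133). Mmd was 14.4, 12.2 and 11.4 CPM in the controls and 30.8, 49.9 and 50.1 CPM in the mutants. Its groups lay far apart, and it rose by 1.78 ± 0.32 (SE, 3.44-fold; edgeR adjusted p = 0.00335). Jup was 88.1, 65.5 and 80.2 CPM in the controls and 105, 127 and 106 CPM in the mutants. The groups did not overlap, yet the log2 difference of 0.54 ± 0.15 (SE, 1.45-fold, 95% interval 0.21 to 0.86) had an edgeR adjusted p of 0.0521. Thus 2 of the 3 genes were called higher, in a comparison that called 3.64% of all genes higher and 1.81% lower. All 3 had every mutant above every control, as did 13.4% of all genes. For Jup the call depends on the tool: the adjusted p was 0.0104 with DESeq2, 0.0368 with limma-voom and 0.0473 with DESeq2 size factors in edgeR. Over all settings 1 to 1562 genes were called there, the most with DESeq2, against 904 in the reported fit. These libraries come from the mice in which the genes were picked, so they are other samples and not other animals.

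The end-stage mice took no part in the choice. In brainstem-labelled libraries Pear1 was 21.1 and 20.4 CPM in controls M1375 and M1521, and 55.1 and 43.7 CPM in mutants M1376 and M1524. The controls, of unlike genotype, were nearly equal, and both mutants were at least 43.7 CPM. Jup was 78.6 and 98.8 CPM in the controls and 132 and 154 CPM in the mutants. Mmd was 17.3 and 23.0 CPM in the controls and 41.6 and 39.2 CPM in the mutants. For all 3 genes both mutants lay above both controls, as they did for 18.5% of all genes. The log2 differences were 1.25 ± 0.31 (SE, 2.38-fold, 95% interval 0.60 to 1.90) for Pear1, 0.69 ± 0.19 (1.61-fold, 0.29 to 1.09) for Jup and 1.005 ± 0.38 (2.01-fold, 0.20 to 1.81) for Mmd. None passed in edgeR, with adjusted p of 0.104, 0.148 and 0.349, in a comparison that called 0.0844% of genes higher and 0.0663% lower. With DESeq2 the adjusted p was 0.00917 for Pear1 and 0.0232 for Jup, and with no filter on low counts in edgeR it was 0.00109 for Pear1 and 0.0315 for Mmd. Over all settings 1 to 574 genes were called there, the most with no filter, against 25 in the reported fit.

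In cortex-labelled end-stage libraries the values of the 2 genotypes lay closer. Pear1 was 26.5 and 28.3 CPM in the controls and 34.9 and 34.1 CPM in the mutants. Jup was 87.5 and 66.7 CPM in the controls and 95.4 and 103 CPM in the mutants. Mmd was 15.9 and 22.9 CPM in the controls and 27.6 and 41.9 CPM in the mutants. Again no group overlapped, but this held for 25.1% of all genes. The log2 differences were 0.33 ± 0.31 (SE, 95% interval -0.32 to 0.98) for Pear1, 0.37 ± 0.19 (-0.03 to 0.77) for Jup and 0.83 ± 0.39 (0.02 to 1.65) for Mmd. None passed, with edgeR adjusted p of 0.629, 0.330 and 0.267, while 1.83% of genes were called higher and 2.18% lower. With 2 mice a group, a p above the threshold does not show that the genotypes were alike.

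The differences themselves were then compared between stages and between region labels. In cortex-labelled libraries the genotype difference at end-stage minus that at 2 months was -1.31 ± 0.40 (SE) for Pear1, -0.17 ± 0.24 for Jup and -0.95 ± 0.50 for Mmd on the log2 scale. None passed in edgeR (adjusted p of 0.236, 0.866 and 0.542), where 0.0964% of genes were called higher and 0.169% lower. The Pear1 value passed in edgeR without mouse M2618, the high control, at -1.83 (adjusted p = 0.00933), and with no filter on low counts, at -1.30 (adjusted p = 0.0259). With no filter 565 genes were called in this comparison, against 44 in the reported fit. Between stages, cortex-labelled mutants had less Pear1 at end-stage, 34.1 and 34.9 CPM, than at 2 months, at least 59.02 CPM, with no overlap. That difference of -0.96 ± 0.29 had an edgeR adjusted p of 0.102, where 0.735% of genes were called higher and 1.10% lower. It passed with DESeq2 (adjusted p = 0.0274), with limma-voom (0.0314) and in edgeR with no filter on low counts (0.0121). With no filter 963 genes were called between stages in these mutants, against 305 in the reported fit. Jup and Mmd in mutants differed between stages by -0.19 ± 0.17 and -0.33 ± 0.35 (edgeR adjusted p = 0.704 and 0.748). In controls the stage differences were 0.35 ± 0.28 for Pear1, -0.02 ± 0.17 for Jup and 0.62 ± 0.35 for Mmd, with edgeR adjusted p of 0.757, 0.993 and 0.649. No gene passed in that comparison in edgeR, and 1432 had an unadjusted p under 0.05. Age and the state of the mice at end-stage cannot be told apart in these comparisons.

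Within mice, the level of Jup was higher in the brainstem-labelled library of 9 of 10, by a median ratio of 1.49, with a range from 0.898 in control M1375 to 2.31 in mutant M2617. In the 3 mutants at 2 months the ratios were 2.31, 1.74 and 2.00, though these libraries were used to pick the gene. Pear1 was higher in the brainstem-labelled library of 3 of 10 mice, which were both end-stage mutants (ratios of 1.58 and 1.28) and control M2629 (1.35), and its median ratio was 0.932. Mmd was higher in 8 of 10 mice, with a median ratio of 1.21 and a range from 0.935 to 2.20. In the end-stage mice the fitted region difference, brainstem-labelled minus cortex-labelled, was 0.37 ± 0.13 (SE) for Jup, 0.06 ± 0.22 for Pear1 and 0.13 ± 0.27 for Mmd. None passed in edgeR (adjusted p of 0.142, 0.940 and 0.865), where 2.06% of genes were called higher and 2.04% lower. The genotype difference at end-stage exceeded in brainstem-labelled libraries that in cortex-labelled ones by 0.92 ± 0.44 for Pear1, 0.32 ± 0.27 for Jup and 0.17 ± 0.54 for Mmd. These also did not pass in edgeR, with an adjusted p of 0.932 for Pear1 and 0.9999 for the other two, where 0.0603% of genes were called higher and 0.0241% lower.

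**Figure D2:**
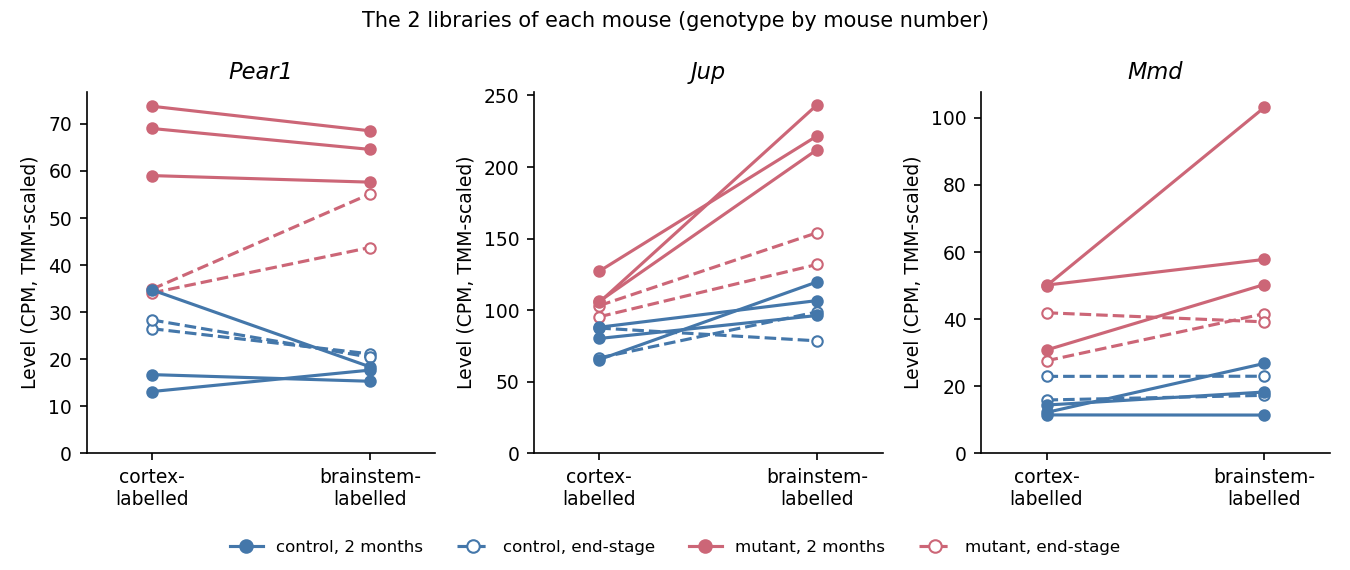
Level of each gene (CPM, TMM-scaled) in the cortex-labelled and the brainstem-labelled library of each mouse, joined by a line; solid lines are 2-month mice, dashed lines end-stage mice. Jup lines climb in 9 of 10 mice, Mmd lines climb in 8, and Pear1 lines climb in 3.

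Over larger sets of libraries the genotypes separated to different degrees. Mmd was 11.4 to 26.8 CPM (median 16.6) over the 10 control libraries and 27.6 to 103 CPM (median 45.9) over the 10 mutant libraries, with no overlap across region labels and stages, which held for 0.157% of genes. Over the brainstem-labelled libraries of both stages all 3 genes were apart (1.40% of all genes), and over the 12 libraries of 2-month mice Pear1 and Mmd were apart (0.952%). All of these counts include the libraries by which the genes were chosen, so nothing is read from them. Over the 8 end-stage libraries, which were not used to pick the genes, Mmd was 15.9 to 23.0 CPM in controls and 27.6 to 41.9 CPM in mutants, and Pear1 was 20.4 to 28.3 CPM in controls and 34.1 to 55.1 CPM in mutants. Neither gene overlapped there, and 4.59% of all genes were apart in that way. Jup overlapped at end-stage, since the cortex-labelled mutant M1376, at 95.4 CPM, lay below the brainstem-labelled control M1521, at 98.8 CPM. Over the cortex-labelled libraries of both stages, Jup was 65.5 to 88.1 CPM in 5 controls and 95.4 to 127 CPM in 5 mutants. Mmd was apart in the same way, at 11.4 to 22.9 and 27.6 to 50.1 CPM, as were 4.51% of all genes. Pear1 overlapped there by the single control M2618, at 34.7 CPM, which lay above the end-stage mutant M1524, at 34.1 CPM.

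All 2-month values depend on which label gives the genotype. Under the record, the brainstem-labelled controls held Pear1 at 57.6, 68.5 and 17.7 CPM and the mutants held 18.4, 15.3 and 64.6 CPM, so the groups were mixed. The log2 differences there became -0.55 ± 0.63 (SE) for Pear1, -0.50 ± 0.31 for Jup and -1.05 ± 0.65 for Mmd. In cortex-labelled libraries they became -0.27 ± 0.63, -0.12 ± 0.31 and -0.29 ± 0.64, with an edgeR adjusted p of 1 each. By the record 0% of genes were called higher in either 2-month comparison, and none of the 3 had every mutant above every control, which 3.63% of all genes had in brainstem-labelled and 3.74% in cortex-labelled libraries. In the 2 mice whose genotype is the same by both readings, Pear1 was 13.1 CPM in control M2629 and 69.03 CPM in mutant M2624 in cortex-labelled libraries, and 17.7 and 64.6 CPM in brainstem-labelled libraries. Mmd was 12.2 and 50.1 CPM, and 26.8 and 57.8 CPM. Jup was 65.5 and 106 CPM, and 119.8 and 212 CPM. The brainstem-labelled values of these mice are among those by which the genes were chosen, and 1 mouse a genotype gives no spread. With those 2 mice as the only 2-month mice, the cortex-labelled log2 difference was 2.40 ± 0.32 for Pear1 and 2.05 ± 0.43 for Mmd, and neither passed (edgeR adjusted p = 0.0757 and 0.284, the lone mouse of each group being taken to vary like the end-stage groups). The end-stage differences kept their size under the record, since the end-stage labels do not change, but their errors grew with the spread of the 2-month groups.

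**Figure D3:**
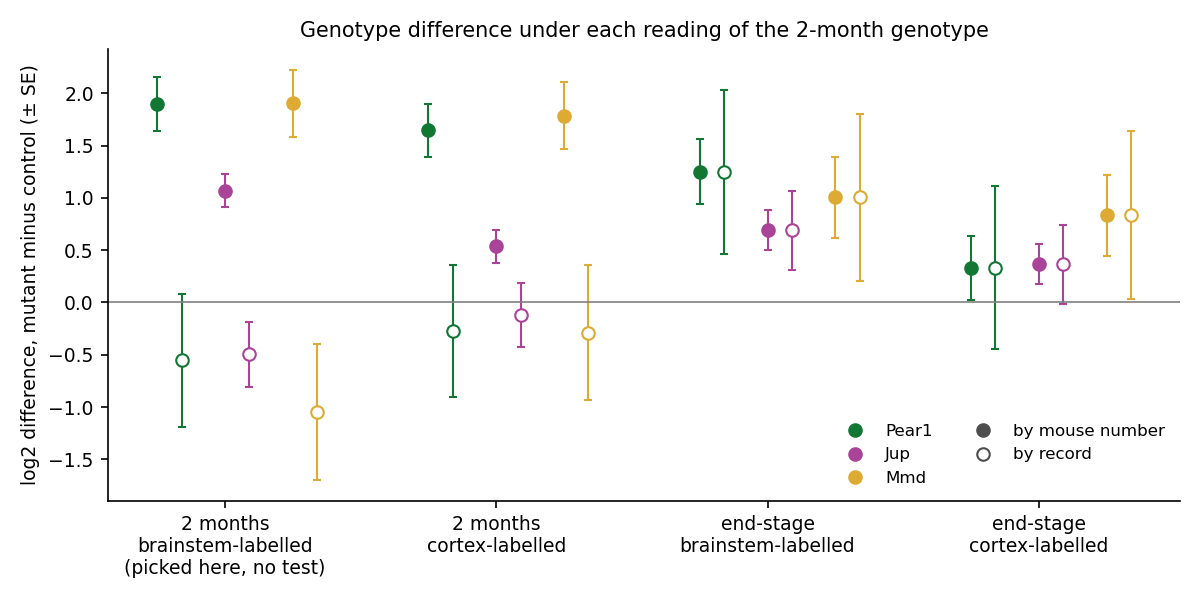
Fitted log2 difference, mutant minus control, with 1 SE, for each gene by region label and stage; filled points take the 2-month genotype from the mouse number in the count column and open points from the record that names the column. By the record the 2-month differences turn from between 0.54 and 1.90 to between -1.05 and -0.12, while the end-stage differences keep their size with wider errors.

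The 3 genes were compared with each other over libraries, as a description, since all were picked for one contrast. Pearson's r of log2 CPM over the 20 libraries was 0.859 for Pear1 and Mmd, 0.800 for Jup and Mmd and 0.668 for Pear1 and Jup. Over the 10 cortex-labelled libraries, outside those used to pick the genes, the values were 0.859, 0.775 and 0.853. The libraries share mice and genotype groups. Within the 10 control libraries r fell to 0.314, 0.377 and -0.07, and within the 10 mutant libraries it was 0.598, 0.707 and 0.433. Among 9838 other genes whose log2 CPM averaged 1 or more, Mmd was the gene most like Pear1 over the 20 libraries, and Pear1 the gene most like Mmd. Jup was 3rd for Mmd, while Jup ranked 144th for Pear1 and Pear1 ranked 97th for Jup.

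After Mmd, the genes most like Pear1 were Msn (r of 0.827), which encodes moesin, a linker of membrane and actin, Ipo9 (0.826), a nuclear import receptor, Actn4 (0.81), an actin crosslinker, and Plekhb2 (0.794). Most like Jup were Rcc2 (0.888), Mknk2 (0.858), a kinase that ERK activates, Spred1 (0.838), an inhibitor of Ras and ERK signalling, Hnrnpl (0.836), an RNA-binding protein, and Inafm2 (0.834). Besides Pear1 and Jup, Mmd was most like Ank (0.844), a pyrophosphate transporter, Atp6v0a1 (0.798), a subunit of the vacuolar proton pump, and Ccnd2 (0.772), a cyclin. For none of the 3 was any of its own 5 genes among its 5 most alike over the 10 cortex-labelled libraries alone, so the order of likeness rests on the set of libraries. There Rcc2, named above for Jup, was among the 5 most like Pear1 (0.932), and Ipo9, named above for Pear1, among the 5 most like Jup (0.919).

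Pear1 was read beside its relatives, its signalling and the cell types it is known from. Of 9 EGF-repeat and scavenger receptors, 6 passed the filter on low counts and Megf10, an engulfment receptor of astrocytes, had 0 counts in all 20 libraries. Among them 1 fell in cortex-labelled 2-month mutants, Stab1, a scavenger receptor of macrophages (log2 difference -0.91 ± 0.20 (SE), edgeR adjusted p = 0.0118), and none passed at end-stage. The median of the 6 was -0.13 in cortex-labelled 2-month libraries, 0.09 in cortex-labelled and 0.41 in brainstem-labelled end-stage libraries, beside medians of -0.01, 0.02 and -0.02 over all genes. Of 17 genes of Pear1 signalling in platelets, 16 were measured. Akt2, a kinase downstream of PI3K, rose in cortex-labelled 2-month mutants (0.73 ± 0.21, edgeR adjusted p = 0.0474), and Pik3cb, a catalytic subunit of PI3K, rose in cortex-labelled end-stage mutants (0.87 ± 0.24, edgeR adjusted p = 0.0476). None passed in brainstem-labelled end-stage libraries, and the medians in the same order were 0.17, 0.34 and 0.32.

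Of the cell types in which Pear1 is best known, platelets and megakaryocytes left markers that summed to 109.5 to 159.5 CPM in controls and 40.1 to 111 CPM in mutants, the reverse of the order of Pear1. Most of that sum was Gp9, at 59.6 to 104 CPM in controls and 2.55 to 53.7 CPM in mutants, and Itgb3, at 25.1 to 73.8 and 22.2 to 59.7 CPM. Gp9 fell in each tested genotype comparison, by 2.20, 3.86 and 1.74 on the log2 scale in cortex-labelled 2-month, cortex-labelled end-stage and brainstem-labelled end-stage libraries (edgeR adjusted p of 0.000195, 1.61e-05 and 0.0229). Gp6 and Gp1bb, which define platelets and megakaryocytes, had 0 counts in all 20 libraries, and Ppbp reached 0.0472 CPM. Itga2b, at most 0.280 CPM in controls and 2.87 CPM in mutants, rose in cortex-labelled 2-month mutants (edgeR adjusted p = 0.0456), from levels too low for a fold. Endothelial and pericyte markers summed to 23.5 to 66.4 CPM in controls and 37.2 to 119.9 CPM in mutants, and 10 of 16 stayed below 1 CPM in every library. Tek and Esam had 0 counts in all 20 libraries, Cldn5 reached 0.381 CPM and Cdh5 2.08 CPM. Kdr, a receptor for VEGF, rose in cortex-labelled mutants at 2 months and at end-stage (2.78 ± 0.45 and 2.87 ± 0.57, edgeR adjusted p = 0.00180 and 0.00825). Flt1, another VEGF receptor, at most 0.851 CPM in controls and 27.9 CPM in mutants, rose in both as well (edgeR adjusted p = 0.0394 and 0.0417). Pecam1, an adhesion molecule of endothelium, fell in cortex-labelled end-stage mutants (-1.57 ± 0.38, edgeR adjusted p = 0.0264). Thus of 6 measured markers 2 were higher at 2 months, 2 were higher and 1 was lower at end-stage in cortex-labelled libraries, and none passed in brainstem-labelled end-stage libraries. The part of Kdr-bearing or other cells in the Pear1 values was not tested. In bulk samples, a change in the number of cells of a type and a change in RNA per cell cannot be told apart.

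Jup was abundant in libraries that held little RNA of its desmosomal partners. Of 15 desmosome genes, 13 stayed below 1 CPM in all 20 libraries. Dsp, encoding desmoplakin, had 0 counts in 15 libraries and reached 0.142 CPM, and Dsg1b and Dsg4, desmosomal cadherins, had 0 counts throughout. Perp, a tetraspan membrane protein, at 2.49 to 54.9 CPM, and Pkp4, a plakophilin relative, at 3.52 to 21.1 CPM, were the other two. Per kilobase of exon and scaled by raw library totals, as all list genes here are, Jup was 10.6 to 36.4 CPM per kb (median 15.4), against medians of 6.498 for Perp and 1.43 for Pkp4. With 3 desmosome genes past the filter, none passed a tested genotype comparison, and Pkp4 was higher at end-stage than at 2 months in cortex-labelled mutants (1.98 ± 0.30, edgeR adjusted p = 0.00207).

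The other proteins to which plakoglobin binds or is related were present in part. Ctnnb1, encoding beta-catenin, was 19.7 to 39.0 CPM per kb (median 29.2), and Ctnna1, encoding alpha-catenin, 4.18 to 7.31 CPM per kb. Cdh1, encoding E-cadherin, had 0 counts in 8 libraries and at most 0.280 CPM. Of 14 adherens junction genes, 7 were measured. None rose in a tested genotype comparison, Ctnnd1, encoding p120-catenin, fell in cortex-labelled 2-month mutants (-1.10 ± 0.25, edgeR adjusted p = 0.0133), and Ctnnd2, its relative, fell in cortex-labelled end-stage mutants (-3.02 ± 0.49, edgeR adjusted p = 0.00208). The median of the 7 was 0.09, -0.19 and 0.25 in cortex-labelled 2-month, cortex-labelled end-stage and brainstem-labelled end-stage libraries. Of 14 genes of catenin and Wnt transcription, 6 were measured. Tcf7l2, a DNA-binding partner of beta-catenin, fell in cortex-labelled mutants at 2 months and at end-stage (-0.62 ± 0.18 and -0.81 ± 0.22, edgeR adjusted p = 0.0499 and 0.0464), and Znrf3, a ligase that removes Wnt receptors, rose at end-stage (1.77 ± 0.43, edgeR adjusted p = 0.0273). Their medians were -0.24, 0.21 and 0.49. Epithelial markers summed to 3.15 to 13.4 CPM in controls and 1.68 to 18.4 CPM in mutants, and 9 of 10 stayed below 1 CPM, with Krt5 at 0 counts in all 20 libraries and Ocln as the other.

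**Figure D4:**
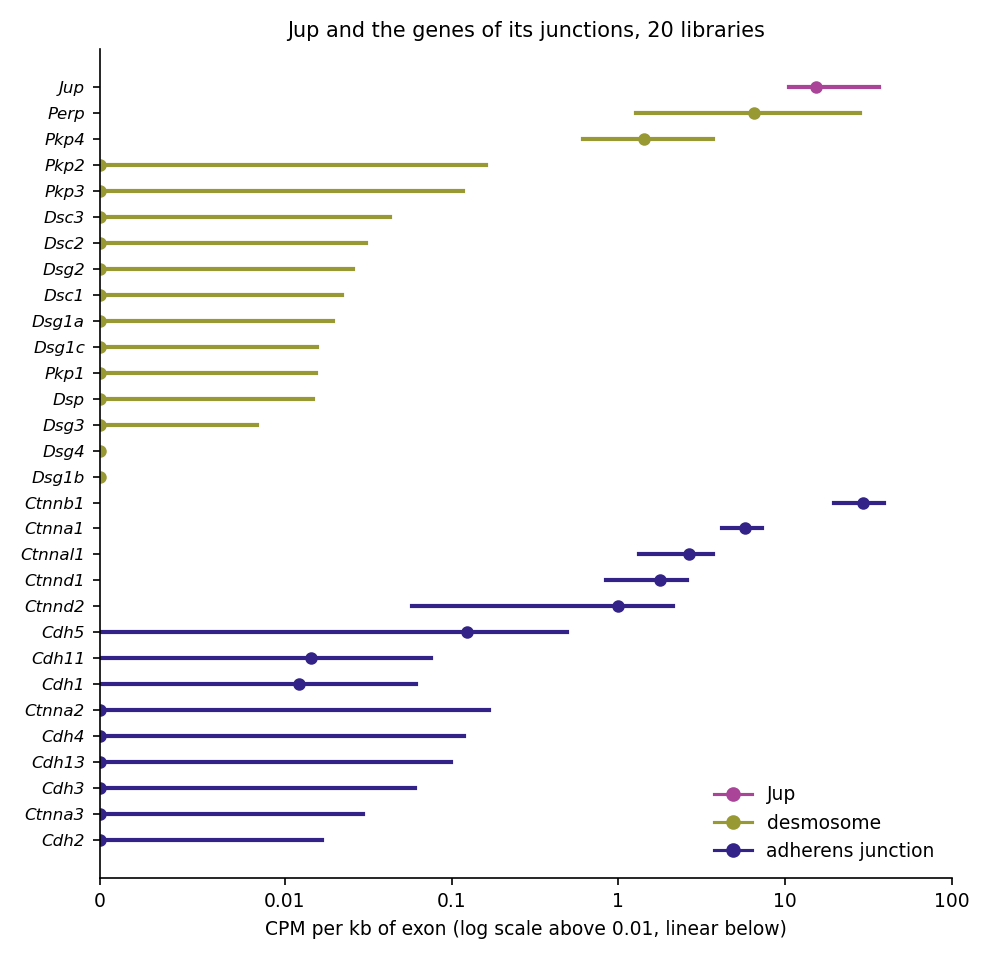
Level of Jup, the desmosome genes and the adherens junction genes over the 20 libraries, in CPM per kb of exon from raw library totals, on an axis that is logarithmic above 0.01 and linear below; lines run from the lowest to the highest library and dots mark the median. Jup has a median of 15.4, Perp 6.498 and Pkp4 1.43, while the other desmosome genes have a median of 0.

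Mmd was read beside the other PAQR genes and the pathways named with it. Mmd2, its closest relative, had 0 counts in 13 libraries and at most 1.51 CPM. Of 10 PAQR genes, 7 were measured and 1 passed: Adipor1, an adiponectin receptor at 218 to 378 CPM, rose in cortex-labelled mutants at 2 months and at end-stage (0.52 ± 0.13 and 0.59 ± 0.16, edgeR adjusted p = 0.0212 and 0.0417). Paqr7, a membrane progestin receptor, was 134 to 236 CPM in controls and 125 to 175 CPM in mutants and passed in none. The median of the 7 was 0.18, 0.62 and 0.29 in cortex-labelled 2-month, cortex-labelled end-stage and brainstem-labelled end-stage libraries. Mmd shares 280 of its exon bases, 7.8%, with Gm45716, annotated as a protein-coding gene on the same strand. Gm45716 held 1008 counts over all libraries against 11481 for Mmd, and its log2 differences were 1.59, 0.70 and 1.58 in the same order (edgeR adjusted p of 0.0832, 0.598 and 0.365). The sources used here do not say how shared bases were counted, so reads over those 280 bases cannot be told apart between these 2 genes. Pear1 shares 321 exon bases, 4.7%, with Lrrc71, which held 91 counts against 13164 for Pear1.

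Of 15 genes of the Ras and ERK cascade, to which Mmd has been linked, 14 were measured. None was called higher in a tested genotype comparison. Of all genes, 3.64% were called higher in cortex-labelled 2-month, 1.83% in cortex-labelled end-stage and 0.0844% in brainstem-labelled end-stage libraries. With shares that low, the lack of calls among 14 genes is no result about the cascade. Map2k1, encoding MEK1, fell in cortex-labelled end-stage mutants (-0.77 ± 0.19, edgeR adjusted p = 0.0273) and the medians were -0.12, -0.24 and -0.24. Of 18 genes that ERK induces, 16 were measured. In cortex-labelled 2-month mutants 2 rose, the early transcription factor Egr1 (2.82 ± 0.50, edgeR adjusted p = 0.00285) and Myc (0.80 ± 0.23, edgeR adjusted p = 0.0498). Egr1 also rose in cortex-labelled end-stage mutants (4.91 ± 0.68, edgeR adjusted p = 0.000536). Egr1 is also among the genes that cell dissociation induces. Of the 10 measured genes of that list 4 rose and 1 fell in cortex-labelled end-stage mutants. Beside Egr1 the rises were those of Dusp1 (2.76 ± 0.32, edgeR adjusted p = 0.000122), Atf3 (1.72 ± 0.33, 0.00660) and Fos (adjusted p = 0.0491), the last 2 named with their values known. Jun fell in end-stage mutants of both labels (-1.32 and -1.71, edgeR adjusted p = 0.00153 and 0.00169), the one call in brainstem-labelled end-stage libraries. The part of dissociation in the Egr1 values was not tested. The medians of the 16 were 0.77, 0.48 and 0.66.

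Of 14 genes of the monocyte to macrophage transition, all 14 were measured. In cortex-labelled 2-month mutants 2 rose, Csf2rb, the shared receptor subunit for GM-CSF (0.83 ± 0.18, edgeR adjusted p = 0.0113), and Irf8, a transcription factor of myeloid cells (0.56 ± 0.15, edgeR adjusted p = 0.0385). At end-stage 3 rose and 1 fell in cortex-labelled mutants, led by Egr2 (4.22 ± 0.80, edgeR adjusted p = 0.00598) and Csf2rb (1.13 ± 0.22, edgeR adjusted p = 0.00825). The gene that fell was Spi1, encoding the myeloid factor PU.1 (-0.66 ± 0.18, edgeR adjusted p = 0.0441), a gene singled out with its value known. The medians were 0.28, 0.62 and 0.33, and none of the genes in these Mmd lists passed in brainstem-labelled end-stage libraries. Monocyte markers moved with genotype beside Mmd: their sum was 0.426 to 8.74 CPM in controls and 9.97 to 772 CPM in mutants, with Fn1 and Plac8 raised in cortex-labelled 2-month mutants (edgeR adjusted p = 0.0119 and 0.00394). Of 6 measured monocyte markers these 2 passed at 2 months, Fn1 alone passed in cortex-labelled end-stage libraries, and none passed in brainstem-labelled end-stage ones. Fn1 alone reached 768 CPM. Border macrophage markers summed to 1.32 to 33.1 CPM in controls and 6.29 to 247 CPM in mutants, but most of the high sums was Siglec1, at most 7.41 CPM in controls and 194 CPM in mutants, and Ms4a7, at most 5.59 and 40.8 CPM. The other way, Mrc1, Cd163, Lyve1, Pf4 and Cbr2 each had their highest level in a control. The median difference of the 8 markers was -1.95, 0.35 and -0.89 in cortex-labelled 2-month, cortex-labelled end-stage and brainstem-labelled end-stage libraries, and Siglec1, in the first, was the one call (edgeR adjusted p = 0.00917). The part of monocytes and border macrophages in the levels of Pear1, Jup and Mmd was not tested.

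Microglial markers dominated every library, with a sum of 54629 to 64272 CPM over 10 genes in controls and 34363 to 67231 CPM in mutants. In cortex-labelled 2-month libraries the sum was 58588 to 60440 CPM in controls and 45734 to 50276 CPM in mutants. In cortex-labelled end-stage libraries it was 54629 to 57933 and 34363 to 37148 CPM. In brainstem-labelled end-stage libraries it was 63427 to 64134 CPM in controls and 51762 to 58201 CPM in mutants. The genotypes overlapped in brainstem-labelled 2-month libraries, where the 3 genes were picked, at 63007 to 64272 and 57768 to 67231 CPM. Of the 10 markers 3 fell in cortex-labelled 2-month mutants, led by Gpr34 (-1.41 ± 0.18, edgeR adjusted p = 0.000522) and P2ry12 (-1.10 ± 0.20, 0.00391). In cortex-labelled end-stage mutants 5 of these markers fell, and none passed in brainstem-labelled end-stage libraries. Their part in the levels of Pear1, Jup and Mmd was not tested. Astrocyte markers summed to 137 to 1506 CPM in controls and 147 to 1154 CPM in mutants. Most of that sum was Slc1a3, at 125 to 1500 CPM in controls and 138 to 1149 CPM in mutants. None of the other astrocyte markers exceeded 17.5 CPM, the highest level of Aldh1l1, and Aqp4 reached 0.593 CPM. Oligodendrocyte markers summed to 162 to 261 CPM in controls and 166 to 258 CPM in mutants, and neuronal markers to 1.96 to 23.1 and 0.156 to 12.3 CPM. Of these lists Gfap alone, an astrocyte gene, passed, rising in cortex-labelled end-stage mutants (edgeR adjusted p = 0.0153). B cell markers summed to 670.4 to 936 CPM in controls and 248 to 1128 CPM in mutants, and the genotypes were apart in all but the brainstem-labelled 2-month libraries. Of 3 measured, Cd79b fell in cortex-labelled mutants at 2 months and at end-stage (-1.33 ± 0.25 and -2.07 ± 0.32, edgeR adjusted p = 0.00457 and 0.00143), and Ighm fell at end-stage (-1.51 ± 0.32, 0.0134). Oligodendrocyte precursor markers summed to at most 6.64 CPM in controls and 79.0 CPM in mutants, of which Cspg4 alone was up to 78.1 CPM, while the median of the 5 measured was -4.36 in cortex-labelled end-stage libraries. The markers of neutrophils, T and NK cells and meningeal fibroblasts summed to at most 14.4, 1.42 and 1.08 CPM. Dissociation-induced genes summed to 740.3 to 1203 CPM in controls and 586 to 1331 CPM in mutants. Braf itself was 6.08 to 36.9 CPM in controls and 5.33 to 28.3 CPM in mutants, and counts per gene do not tell its V600E allele from the normal one. Libraries held 9395203 to 21171114 counts. Within a group each library came from another mouse, with 3 or 2 mice in a group. The p-values rest on the spread within groups, pooled over all 8 groups. The fit took the 2 libraries of a mouse as independent, so the region comparisons were not paired in it.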

How the data were processed

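The authors deposited raw, unscaled counts for each gene identifier. The submitters' processing notes list FastQC, Subread, edgeR and the build mm10 and give no version or role, and the sources used here do not state the annotation, the strand setting or how reads shared by genes were handled. RNA was amplified with a SMART-Seq v4 kit, per the labels' protocols, a kit that keeps no strand and adds no molecular identifiers. Of 55487 identifiers, 55094 were matched to symbols by GENCODE M21, and the 393 others held 0.621% of the counts. Counts were fitted with edgeR 4.0.16 in R 4.3.3: filterByExpr left 16595 genes, with TMM factors, 1 quasi-likelihood model over 8 groups and 20 libraries, and Benjamini-Hochberg adjustment over all genes at 0.05. CPM of the 3 members and of the genes beside their threshold used TMM-scaled library sizes; CPM of all other genes, of list sums and of the junction plot used raw library totals. Each SE is the size of the log2 difference over the root of its F value. The 95% intervals use the total degrees of freedom of that test, prior plus residual. Log2 CPM with a prior count of 2 served for likeness.

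The members, lists and the reading of the 2-month genotype were chosen with earlier results of these data known. Named genes were the 3 members, the 5 genes most like each by Pearson's r among genes whose log2 CPM averaged 1 or more, and up to 3 list genes that passed with the lowest p; levels are also given for list genes that define a junction or cell type, chosen after their values were seen. The lists were relatives and signalling of Pear1, desmosome, adherens junction, catenin and Wnt transcription, PAQR, Ras and ERK cascade, ERK output, macrophage differentiation and cell type markers. The 2 libraries of a mouse share an animal, and their deviations from group means correlated at 0.101 to 0.265, so mouse was also fitted as a replicate block. Other settings were the record reading, leaving out mice, DESeq2 1.42.0, limma-voom 3.58.1, other scaling and no filter. Fits were tested on simulated data. Some list genes that met the naming rule are not reported here.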

Additional observations from a re-analysis of the deposited data

How the results depend on the processing

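Under the record reading every 2-month difference of the 3 genes turned: in brainstem-labelled libraries to -0.55 for Pear1, -0.50 for Jup and -1.05 for Mmd, and in cortex-labelled libraries to -0.27, -0.12 and -0.29. The genotype difference between stages turned to 0.61, 0.49 and 1.12, the stage difference in controls to -0.83 for Pear1 and -0.67 for Mmd, and that in mutants to 0.12 for Jup and 0.45 for Mmd. Without the 4 mice whose genotype the readings dispute, the brainstem-labelled 2-month difference was 0.82 for Jup and 1.10 for Mmd, the cortex-labelled one 2.40 for Pear1 (adjusted p = 0.0757) and 2.05 for Mmd (0.284), and the stage difference of Jup in controls 0.24. The cortex-labelled 2-month difference of Jup passed at 0.55 with DESeq2, limma-voom and DESeq2 size factors. In end-stage brainstem-labelled libraries DESeq2 passed Pear1 at 1.25 and Jup at 0.69, and no filter passed Pear1 at 1.26 and Mmd at 1.01, as it did the difference of Pear1 between stages at -1.30. The cause of these changes was not tested.

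Leaving out 1 mouse at a time, Pear1 and Mmd kept their cortex-labelled 2-month call (1.37 to 2.16 and 1.67 to 1.96; edgeR adjusted p of at most 0.0174 and 0.0180), while Jup missed it each time (0.42 to 0.62). The difference between stages was -0.35 to 0.04 for Jup, turning without M1375, and -1.83 to -1.03 for Pear1. The genotype difference by region at end-stage was -0.03 to 0.68 for Jup, turning without M1375, and -0.16 to 0.56 for Mmd, turning without M1376. The stage difference of Jup in controls turned to 0.17 without M1521 and 0.08 without M2618, and the region difference of Mmd to -0.01 without M1376. With mouse as a replicate block, the genotype difference by region was 0.91 for Pear1, 0.32 for Jup and 0.19 for Mmd and the region difference 0.06, 0.37 and 0.15, which changed no call of the 3 genes; the block raised the called genes from 14 to 63 and from 680 to 1220.

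Counts of called genes varied more. They ran over the settings from 0 to 499 (6 in the reported fit) in brainstem-labelled and from 1 to 1562 (904) in cortex-labelled 2-month libraries, and from 1 to 574 (25) in brainstem-labelled and from 171 to 1282 (666) in cortex-labelled end-stage libraries. They ran from 2 to 565 (44) for genotype by stage, 0 to 221 (14) for genotype by region, 140 to 1538 (680) for region, 0 to 282 (0) for stage in controls and 24 to 963 (305) for stage in mutants. The tests rest on 2 or 3 mice a group. Genes with few counts, such as the 13 desmosome genes that stayed below 1 CPM, give no usable difference at this depth.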
